A study of Mus musculus with 4 samples.

Results

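The genes described here make and sense dopamine, make melatonin, or carry the cAMP signal of the retina. They are the 9 rows of the deposited expression table that bear the symbols *Th*, *Ddc*, *Slc18a2*, *Drd1a*, *Drd2*, *Drd4*, *Adcy1*, *Aanat* and *Pdc*, out of 22095 rows in all. They were measured by RNA-seq in 4 libraries of polyadenylated RNA from whole retinas, 2 of *rd7* mice and 2 of wild-type mice, at an age of 3 weeks. The *rd7* mouse is a mutant of *Nr2e3*, which encodes a nuclear receptor that acts in developing rods, and its photoreceptors include rod/cone hybrid cells. The labels give both groups the strain C57BL/6J, and C57BL/6 mice are known to carry a splicing defect in *Aanat*, which was not tested in these animals. Each library pooled 8 retinas from 2 females and 2 males, so that replicates are pools of animals and p-values measure the spread between pools. The sources used here give neither the time of day nor the light state at which retinas were taken.

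Dopamine is made in the retina by a sparse class of amacrine cells and is released in the light. It acts through receptors of the D1 class, which raise cAMP through stimulatory G proteins, and of the D2 class, which lower it. Melatonin is made in photoreceptors at night, and cAMP links the pair of signals, since it controls the enzyme AANAT and the phosphorylation of phosducin in photoreceptors.

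All 9 genes had a successful estimate in every library, and no other listed locus overlaps any of them. Values are FPKM, the sequenced fragments of a gene normalized to the length of the transcript and the number of mapped fragments, so that levels of different genes are compared per length. In wild-type retinas the mean FPKM fell in the order *Pdc*, *Drd4*, *Adcy1*, *Drd2*, *Drd1a*, *Th*, *Slc18a2*, *Ddc* and *Aanat*, from 2195 to 0.225. Neighbours in that order overlapped between libraries for *Drd2* and *Drd1a*, for *Th* and *Slc18a2*, and for *Ddc* and *Aanat*. In *rd7* retinas *Drd1a* stood above *Drd2* and *Slc18a2* above *Th*, and no neighbours in the order overlapped. From the lowest values of genes with a single transcript, each library was estimated to hold between 34900000 and 35600000 reads. That estimate for a library runs low because exonic length exceeds the length Cufflinks divides by. The number of reads behind a value uses the length of all exons of a gene joined. It can therefore run high for genes with several annotated transcripts, such as *Ddc* (9), *Th* (6) and *Aanat* (6).

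**Figure D1:**
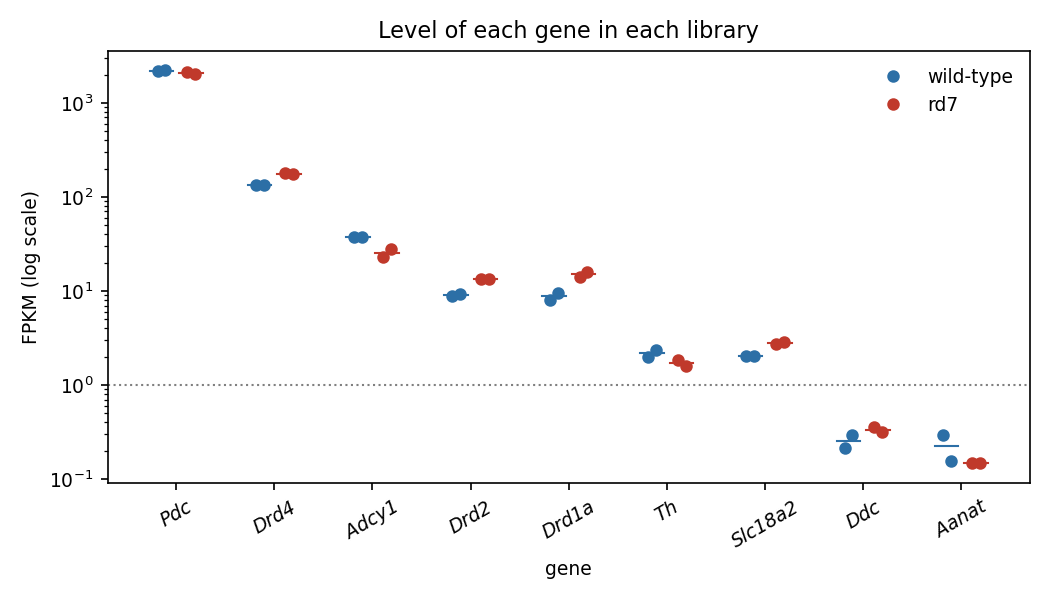
FPKM of the 9 genes on a log scale in each library of wild-type (blue) and *rd7* (red) retinas. Points are libraries, short lines are means of 2 libraries, and the dotted line marks the FPKM of 1 below which genes were not tested. *Ddc* and *Aanat* lie below the line in all 4 libraries, and the *rd7* libraries lie above the wild-type libraries for *Drd1a*, *Drd2* and *Drd4* and below them for *Adcy1*.

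Genotypes were compared with limma on log2(FPKM + 0.1) over the 12655 genes whose FPKM averaged 1 or more, with Benjamini-Hochberg adjustment over all of them and an FDR of 5%. A fold change on this scale is understated where FPKM is low. Of the 7 members tested, *Drd1a*, *Drd2*, *Drd4* and *Slc18a2* were higher and *Adcy1* was lower in *rd7* retinas, while *Th* and *Pdc* were not called. *Ddc* and *Aanat* did not reach the filter. Across all genes tested 46.4% were called in either direction, 37.6% higher and 8.8% lower, so that a call by itself does not set a gene apart in these data. With each library divided by a factor taken from its median gene (median-ratio scaling), 3 members were higher and 3 lower, where 39.3% of all genes were called, 19.7% higher and 19.6% lower. With each library adjusted by splines for base composition and exon length (GC/length correction), 3 members were higher and 2 lower, where 27.5% of all genes were called, 12.4% higher and 15.1% lower. In each of the 7 members tested the values of the genotypes did not overlap, as in 76.6% of all genes tested. Over all genes tested the log2 fold change had a median of 0.15, and -0.0050 with median-ratio scaling. In bulk tissue, fewer cells of a type and less RNA per cell cannot be told apart. *Nr2e3* itself was measured at 2493 and 1589 FPKM in *rd7* and at 385 and 394 in wild-type retinas.

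**Figure D2:**
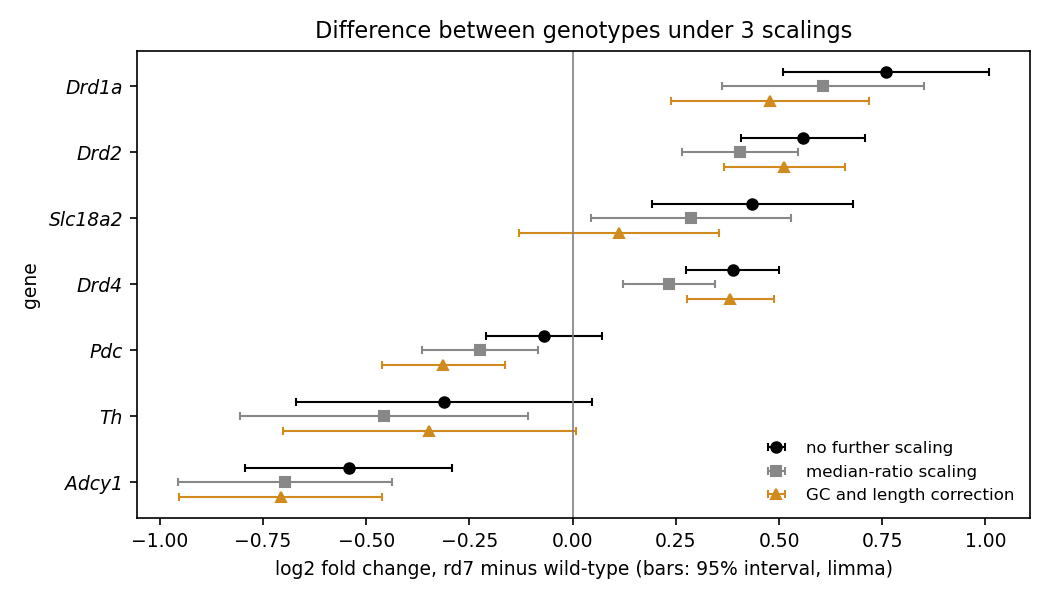
Log2 fold change (*rd7* minus wild-type) of the 7 genes tested, with 95% intervals from limma, without further scaling (circles), with median-ratio scaling (squares) and after the GC/length correction (triangles). The interval of *Slc18a2* reaches across 0 under the correction, and those of *Drd1a*, *Drd2*, *Drd4* and *Adcy1* stay on one side of 0 under all 3.

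Of the genes of dopamine synthesis, *Slc18a2* was higher in *rd7* retinas and *Th* was not called. *Th* (chromosome 7 of mm9, 150078681 to 150085871, minus strand) encodes tyrosine hydroxylase, the rate-limiting enzyme of dopamine synthesis. Its FPKM was 1.84 and 1.61 in *rd7* and 1.96 and 2.38 in wild-type retinas, with 133 to 200 estimated reads behind each value. Both *rd7* values lay below both wild-type values. The log2 fold change was -0.31 (95% interval -0.67 to 0.05, adjusted p = 0.131 from limma), and it was called lower with median-ratio scaling (-0.46, limma adjusted p = 0.0486) and with quantile normalization (-0.50, adjusted p = 0.0364 from limma). Without wild-type replicate 2 it was -0.18 (adjusted p = 0.510 from limma).

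*Slc18a2* (chromosome 19, 59335368 to 59370502, plus strand) encodes VMAT2, the transporter that loads dopamine into vesicles. Its FPKM was 2.75 and 2.88 in *rd7* and 2.05 and 2.06 in wild-type retinas, with 277 to 381 estimated reads. The genotypes did not overlap, and the log2 fold change was 0.43 (standard error 0.10, adjusted p = 0.0166 from limma). Median-ratio scaling (0.29, adjusted p = 0.0650) removed this call, as did quantile normalization (0.23, adjusted p = 0.112) and the GC/length correction (0.11, adjusted p = 0.426, all from limma). It was also lost without either wild-type library, with an adjusted p from limma of 0.121 without replicate 1 and of 0.105 without replicate 2. A ratio of a pair of genes within a library does not change when the whole library is multiplied by a factor, but does change under the GC/length correction and quantile normalization. From the deposited FPKM, the ratio of *Th* to *Slc18a2* was 0.670 and 0.560 in *rd7* and 0.955 and 1.16 in wild-type retinas, so that it was 0.582 times as high in *rd7* retinas on average. The genotypes did not overlap in this ratio, which was given no test.

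*Ddc* (chromosome 11, 11714106 to 11798147, minus strand) encodes the decarboxylase that turns L-DOPA into dopamine. Its FPKM was 0.356 and 0.315 in *rd7* and 0.211 and 0.293 in wild-type retinas, with 33 to 55 estimated reads. The *rd7* values were the higher ones, by a small gap. Without the filter on low FPKM its log2 fold change was 0.32 (adjusted p = 0.338 from limma).

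The promoters of *Th* and *Slc18a2* are shown because both hold the palindromic cAMP response element TGACGTCA, the site of CREB, while the *rd7* values lay below wild-type for *Th* and above it for *Slc18a2*. The windows cover 250 bases before to 50 bases after the transcription start and are RefSeq sequence of GRCm38.p6, printed 5′ to 3′ on the strand of the gene with the motif in capitals. They lie at chr7:142899946-142900245 on the minus strand (*Th*) and at chr19:59260628-59260927 on the plus strand (*Slc18a2*). The promoter of *Adcy1*, at chr11:7063183-7063482 on the plus strand, follows because it holds the E-box CACGTG, the site of the CLOCK and BMAL1 pair.
Th: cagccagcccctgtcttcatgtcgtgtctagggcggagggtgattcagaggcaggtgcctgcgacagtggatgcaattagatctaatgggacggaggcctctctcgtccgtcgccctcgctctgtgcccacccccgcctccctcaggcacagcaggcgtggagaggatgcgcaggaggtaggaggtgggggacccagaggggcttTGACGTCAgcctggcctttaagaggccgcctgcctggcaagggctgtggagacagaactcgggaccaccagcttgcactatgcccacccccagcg
Slc18a2: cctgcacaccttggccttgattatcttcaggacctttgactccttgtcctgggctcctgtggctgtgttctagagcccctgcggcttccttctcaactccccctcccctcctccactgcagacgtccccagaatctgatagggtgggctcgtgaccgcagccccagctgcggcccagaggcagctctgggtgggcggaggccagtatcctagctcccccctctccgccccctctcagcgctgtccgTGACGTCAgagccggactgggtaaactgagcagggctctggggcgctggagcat
Adcy1: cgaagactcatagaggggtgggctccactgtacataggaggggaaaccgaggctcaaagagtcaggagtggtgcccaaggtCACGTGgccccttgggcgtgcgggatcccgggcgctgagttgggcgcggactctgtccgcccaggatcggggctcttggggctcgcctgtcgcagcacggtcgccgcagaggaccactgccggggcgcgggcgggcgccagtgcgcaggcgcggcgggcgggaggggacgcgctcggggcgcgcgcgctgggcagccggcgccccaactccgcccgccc
The element of *Th* starts at base -45 and that of *Slc18a2* at base -4 from the start site, across which it reaches, and the E-box of *Adcy1* starts at base -169. Of the 32851 promoter windows of the same length, 1.79% hold the cAMP response element and 7.15% the E-box on either strand. The core site of CRX (TAATCC, in 7.06% of windows) and a half-site of NR2E3 (AAGTCA, in 15.1%) were searched on both strands as well. No motif overlapped another in these 3 windows. Windows were found for 8 of the 9 genes, and those of *Ddc*, *Drd1a*, *Drd2*, *Drd4* and *Pdc* held none of the 4 motifs, which says only that these letters are not in the window. Matches of letters are a description, and binding was not measured.

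All 3 dopamine receptors of the member list were higher in *rd7* retinas. *Drd1a* (chromosome 13, 54146553 to 54151027, minus strand) encodes the D1 receptor, which in the retina is found on inner retinal neurons and horizontal cells. Its FPKM was 14.2 and 15.8 in *rd7* and 8.06 and 9.62 in wild-type retinas, with 1007 to 1938 estimated reads. The genotypes did not overlap, and the rise of 1.70-fold was the largest among the members tested (log2 fold change 0.76, standard error 0.10, adjusted p = 0.00333 from limma). The fold change stayed positive at 0.61 with median-ratio scaling and at 0.48 with the GC/length correction (adjusted p = 0.00803 and 0.0205 from limma), and the call was lost without the filter on low FPKM (adjusted p = 0.0714 from limma).

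*Drd2* (chromosome 9, 49148767 to 49215319, plus strand) encodes the D2 receptor, which serves as the autoreceptor of dopaminergic amacrine cells. Its FPKM was 13.5 and 13.3 in *rd7* and 8.75 and 9.35 in wild-type retinas, with 789 to 1214 estimated reads. The wild-type libraries differed more from each other than the *rd7* libraries did, and the genotypes stood well apart. The log2 fold change was 0.56 (standard error 0.06, adjusted p = 0.00204 from limma), or 1.48-fold. *Drd2* and *Drd4* were called higher under each of the 10 other settings and without any 1 library. The ratio of *Drd1a* to *Drd2* was 1.06 and 1.19 in *rd7* and 0.921 and 1.03 in wild-type retinas, a gap smaller than the difference between the replicate libraries.

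*Drd4* (chromosome 7, 148477905 to 148480900, plus strand) encodes the D4 receptor, the D2-class receptor of photoreceptors, and was the most abundant receptor of the set. Its FPKM was 178 and 173 in *rd7* and 135 and 134 in wild-type retinas, with 13190 to 17472 estimated reads, and replicate libraries lay close together. The log2 fold change was 0.39 (standard error 0.05, adjusted p = 0.00244 from limma), or 1.31-fold. It was 0.23 with median-ratio scaling (limma adjusted p = 0.0128) and 0.38 with the GC/length correction (adjusted p = 0.00404 from limma). *Drd4* exceeded *Drd2* 13.2-fold and 13.1-fold in *rd7* and 15.4-fold and 14.3-fold in wild-type retinas.

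*Aanat* (chromosome 11, 116455001 to 116458993, plus strand) encodes the enzyme that acetylates serotonin on the way to melatonin. Its FPKM was 0.149 and 0.147 in *rd7* and 0.294 and 0.156 in wild-type retinas, with 8 to 17 estimated reads behind each value. One wild-type library stood above the other 3, which were nearly equal. Without the filter its log2 fold change was -0.36 (adjusted p = 0.516 from limma), and no difference was detectable at this depth.

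*Adcy1* (chromosome 11, 6963492 to 7078508, plus strand) encodes adenylyl cyclase 1, which makes cAMP and is stimulated by calcium and calmodulin. Its FPKM was 22.9 and 28.3 in *rd7* and 37.1 and 37.1 in wild-type retinas, with 10134 to 16529 estimated reads. The *rd7* libraries differed from each other, and both lay below the wild-type libraries. The log2 fold change was -0.54 (standard error 0.10, adjusted p = 0.00871 from limma), or 0.690 times the wild-type level. It was -0.70 with median-ratio scaling and -0.71 after the GC/length correction (adjusted p = 0.00659 and 0.00733 from limma). Without 1 wild-type library the call was lost (adjusted p = 0.0706 without replicate 1 and 0.0584 without replicate 2, from limma), while the fold change stayed at -0.54 in both. It was lost as well without the filter on low FPKM (adjusted p = 0.117 from limma).

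*Pdc* (chromosome 1, 152166547 to 152181035, plus strand) encodes phosducin, an abundant photoreceptor protein that binds the beta and gamma subunits of transducin and is phosphorylated by the cAMP-dependent kinase. Its FPKM was 2141 and 2042 in *rd7* and 2174 and 2217 in wild-type retinas. The *rd7* values were slightly lower, and the log2 fold change was -0.07 (95% interval -0.21 to 0.07, adjusted p = 0.351 from limma). With median-ratio scaling it was called lower (-0.22, limma adjusted p = 0.0280), as it was with the GC/length correction (-0.31, adjusted p = 0.0173 from limma), and with quantile normalization the sign turned (0.13, adjusted p = 0.211 from limma). The level of *Pdc* against that of the rod gamma subunit *Gngt1* was higher in *rd7* retinas, at 1.48 and 1.41 against 1.04 and 1.04. Against the rod alpha subunit *Gnat1*, the ratio was 0.790 and 0.613 in *rd7* and 0.422 and 0.426 in wild-type retinas. In both ratios the genotypes did not overlap. Both denominators were themselves called lower with the filter on low FPKM (*Gngt1* -0.55 and *Gnat1* -0.79), while *Pdc* was not. Of 7 rod marker genes tested, 3 were lower and 4 were not called, so these ratios do not stand for rod genes in general. Against the phosducin-like gene *Pdcl* the ratio was lower in *rd7* retinas, at 63.7 and 61.7 against 88.7 and 82.6, also without overlap.

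Among the partners of phosducin, the beta and gamma subunits of cone transducin rose, and the rod gamma subunit was called lower with the filter on low FPKM but not without it. *Gnb3*, the cone beta subunit, had an FPKM of 731 and 803 in *rd7* and of 222 and 224 in wild-type retinas (log2 fold change 1.78, adjusted p = 9.07e-05 from limma). *Gngt2*, the cone gamma subunit, had an FPKM of 481 and 415 against 216 and 224 (1.02, adjusted p = 0.000933 from limma), and *Gngt1* of 1450 and 1447 against 2098 and 2129 (-0.55, adjusted p = 0.00145 from limma, and 0.322 without the filter). The log2 fold change of *Gngt1* was -0.94 after the GC/length correction and -0.33 with quantile normalization. *Gnb3* stood at 0.504 and 0.555 times the level of *Gngt1* in *rd7* and at 0.106 and 0.105 times in wild-type retinas. *Pdcl*, the phosducin-like gene expressed in many tissues, had a log2 fold change of 0.38 (adjusted p = 0.00551 from limma), which the GC/length correction took to 0.07, not called. *Gnb1*, the rod beta subunit, was left out because its estimate was not successful in every library.

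The other genes of the pathways were taken from lists chosen with earlier results of these data known, and are described by counts and medians. Over all genes tested these were 37.6% higher, 8.8% lower and a median log2 fold change of 0.15, which fell to -0.0050 with median-ratio scaling and to -0.02 after the GC/length correction. Without the filter on low FPKM fewer genes were called, and *Gnai1*, *Ywhaz*, *Adcy9*, *Crem*, *Pdcl* and *Spr* were then not called, with adjusted p from limma of 0.0719, 0.0502, 0.253, 0.0835, 0.0634 and 0.114. In the list of dopamine synthesis and clearance, 7 of 13 genes were tested, of which 2 were higher (28.6%) and 2 lower (28.6%), with a median log2 fold change of 0.02. The same number was lower and neither higher call was made with median-ratio scaling, where the median turned to -0.14, or with quantile normalization (-0.14), and after the GC/length correction the median of the 6 genes that could be fitted was -0.15, with 2 lower. Of the genes that bear on tetrahydrobiopterin, the cofactor of tyrosine hydroxylase, *Gchfr* and *Spr* were lower, *Qdpr* was higher, *Pts* (0.02) and *Pcbd1* (-0.09) were not called, and *Gch1* was below the filter. *Gchfr*, which encodes the feedback regulator of GTP cyclohydrolase, was at 1.86 and 1.58 FPKM in wild-type and at 0.982 and 0.967 in *rd7* retinas, on 22 to 42 estimated reads (log2 fold change -0.76, adjusted p = 0.0118 from limma). It passed the filter through the wild-type values, and its call was lost without the filter (adjusted p = 0.0701 from limma). *Spr*, which encodes sepiapterin reductase, was lower by a smaller margin (-0.24, adjusted p = 0.0275 from limma), and was not called with the GC/length correction (-0.14). Of the higher genes, *Qdpr* (0.20), which regenerates the cofactor, was not called with median-ratio scaling. Of the 4 calls of this list, 1 was also made without the filter on low FPKM. *Slc6a3*, the dopamine transporter, lay between 0.0547 and 0.118 FPKM in the 4 libraries, on 7 to 14 estimated reads.

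Of the list of receptors and effectors, 9 of 10 genes were tested, with 5 higher (55.6%), 3 lower (33.3%) and a median of 0.21. With median-ratio scaling 3 were higher and 3 lower (median 0.05), and after the GC/length correction 2 and 2 (median 0.06). Of the 8 calls, 3 were also made without the filter on low FPKM. *Gnai3*, an inhibitory G protein alpha subunit, had an FPKM of 15.4 and 15.1 in *rd7* and 8.80 and 9.64 in wild-type retinas (log2 fold change 0.72, adjusted p = 0.00133 from limma). After the GC/length correction its log2 fold change was 0.38 (adjusted p = 0.00904 from limma). *Gnaz*, of the same inhibitory class, fell from 30.6 and 31.0 to 22.6 and 22.2 (-0.46, adjusted p = 0.00191 from limma). *Gnai1* (0.42), also inhibitory, and *Gnal* (0.36), which encodes a stimulatory alpha subunit, rose, and neither was called with the GC/length correction. *Gnas*, the other stimulatory subunit of the list, was lower (-0.17, adjusted p = 0.0363 from limma). Its call was also made with median-ratio scaling (-0.32) and the GC/length correction (-0.23), but not without the filter on low FPKM (adjusted p = 0.208 from limma). *Drd5*, the other D1-class receptor, lay between 1.08 and 1.36 FPKM, overlapped between genotypes and was not called (0.15, adjusted p = 0.479 from limma), and *Drd3* was listed at 0 in all 4 libraries. *Drd1a* exceeded *Drd5* 10.9-fold and 11.6-fold in *rd7* and 7.44-fold and 7.34-fold in wild-type retinas.

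Of the melatonin list, 7 of 8 symbols are in the table and 3 were tested, with 2 higher and a median of 0.41. *Ywhaz* and *Ywhae*, 14-3-3 proteins that bind AANAT among many partners, were higher (0.41 and 0.29), and neither was called with the GC/length correction. *Tph1*, which encodes the tryptophan hydroxylase of the first step towards serotonin, had a mean FPKM under 1 and was not tested with the filter. Its FPKM was 1.60 and 1.16 in *rd7* and 0.410 and 0.242 in wild-type retinas, with 32 to 209 estimated reads, and its log2 fold change without the filter was 1.81 (adjusted p = 0.0779 from limma). Both *rd7* values lay above both wild-type values. The melatonin receptor gene *Mtnr1a* had 7 to 30 estimated reads in each library, and *Mtnr1b* at most 1.

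Adenylyl cyclase genes moved in both directions. Beside *Adcy1*, 7 of 9 cyclase genes were tested, with 5 higher (71.4%), 1 lower (14.3%) and a median log2 fold change of 0.40. *Adcy2* had an FPKM of 34.4 and 32.2 in *rd7* and of 18.3 and 19.2 in wild-type retinas (0.83, adjusted p = 0.000804 from limma). *Adcy6*, a cyclase that calcium inhibits, fell like *Adcy1*, from 47.1 and 46.1 to 31.1 and 25.8 (-0.71, adjusted p = 0.00303 from limma), and lost its call without the filter on low FPKM (adjusted p = 0.0698 from limma). *Adcy8* (0.46) and *Adcy5* (0.40) rose, and the calls of *Adcy2*, *Adcy5*, *Adcy6* and *Adcy8* were also made under median-ratio scaling and under the GC/length correction. *Adcy9* (0.47, adjusted p = 0.0498 from limma) was not called with either. Of the 6 calls beside *Adcy1*, 3 were also made without the filter on low FPKM. The summed FPKM of the 10 cyclase genes was 112 and 111 in *rd7* and 119.9 and 121 in wild-type retinas. Of this sum *Adcy1* held 20.4% and 25.6% in *rd7* and 31.0% and 30.6% in wild-type retinas, and *Adcy2* held 30.7% and 29.1% against 15.3% and 15.8%. The ratio of *Adcy1* to *Adcy6*, at 0.734 and 1.09 in *rd7* and 0.787 and 0.805 in wild-type retinas, overlapped between genotypes.

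**Figure D3:**
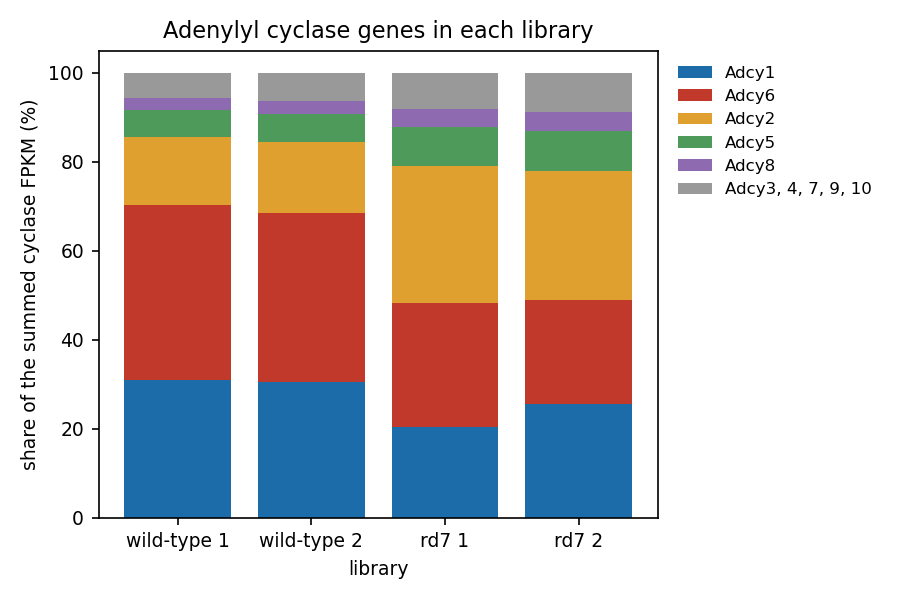
Share of each adenylyl cyclase gene in the summed FPKM of the 10 cyclase genes, in percent, for each library. *Adcy2* holds 29.1% to 30.7% in the *rd7* libraries and 15.3% to 15.8% in the wild-type libraries, and *Adcy6* holds 23.4% to 27.8% and 38.0% to 39.3%.

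Genes of phosphodiesterases that break down cAMP were mostly higher. Of 14 genes tested 11 were higher (78.6%, where 37.6% of all genes were), with a median of 0.58, which was 0.43 with median-ratio scaling and 0.23 after the GC/length correction. *Pde10a* was nearest to a lower call (-0.48, adjusted p = 0.0520 from limma), and *Pde2a* and *Pde4a* were not called either. *Pde8a* had an FPKM of 18.3 and 21.7 in *rd7* and of 6.48 and 6.93 in wild-type retinas (log2 fold change 1.56, adjusted p = 0.000528 from limma). *Pde3a* had 9.67 and 10.6 against 4.61 and 4.61 (1.12, adjusted p = 0.000608 from limma). *Pde3b* (0.76) and *Pde8b* (0.74) followed, of which *Pde3b* was not called with the GC/length correction (0.40, adjusted p = 0.0692 from limma). With the GC/length correction 5 of these genes were higher and 1 lower, and with median-ratio scaling 9 and 1.

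Of the effectors of cAMP, 16 of 17 genes were tested, with 8 higher (50%, where 37.6% of all genes were), 1 lower (6.25%, where 8.8% were) and a median of 0.20. With median-ratio scaling 6 were higher and 4 lower, with a median of 0.04, and after the GC/length correction 4 were higher and 1 lower, with a median of 0.08. The higher genes include subunits of the cAMP-dependent kinase. *Prkacb*, a catalytic subunit, had an FPKM of 74.3 and 73.9 in *rd7* and 45.8 and 46.9 in wild-type retinas (0.68, adjusted p = 0.000678 from limma), while *Prkaca*, the other catalytic subunit of the list, was not called (-0.08) but was lower with median-ratio scaling (-0.23, limma adjusted p = 0.0143) and with quantile normalization (-0.22, adjusted p = 0.0172 from limma). *Pkia*, which encodes an inhibitor of the kinase, rose by 0.95 (adjusted p = 0.00105 from limma) and *Crem*, which encodes activators and repressors at cAMP response elements, by 0.66 (adjusted p = 0.00573 from limma). *Crtc3*, a coactivator of CREB, was the lower gene (-0.66, adjusted p = 0.00140 from limma). With the GC/length correction the log2 fold change of *Prkacb* was 0.37 and that of *Pkia* 0.59, both called higher, and *Crem* was not called.

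Clock genes are given beside these results since *Drd4*, *Adcy1* and *Aanat* are known to follow a daily rhythm in the rodent retina. Of 15 clock genes 14 were tested, with 5 higher (35.7%) and 3 lower (21.4%) and a median of 0.09. All genes tested gave 37.6%, 8.8% and 0.15. With median-ratio scaling 3 clock genes were higher (21.4%) and 5 lower (35.7%, median -0.06), where all genes gave 19.7% and 19.6%. With the GC/length correction 1 was higher (7.14%) and 5 lower (35.7%, median -0.12), where all genes gave 12.4% and 15.1%. Of the 8 calls, 4 were also made without the filter on low FPKM. *Dbp* (-0.51), *Per2* (-0.38) and *Per1* (-0.21) were lower and *Clock* (0.70) was higher, each also under median-ratio scaling and under the GC/length correction, while *Per2* was not called without the filter on low FPKM (adjusted p = 0.117 from limma). The GC/length correction took the log2 fold change of *Clock* to 0.33. The part of the clock genes in the results was not tested.

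Markers of retinal cell types are given beside all genes tested, of which 37.6% were higher and 8.8% lower. Of the markers tested, 62.5% (amacrine), 75% (cone) and 71.4% (pigment epithelium) were higher, and 42.9% of rod markers were lower. The 42.9% of Müller cell markers that were higher lay near the share of all genes. The 8 amacrine markers summed to an FPKM of 630.1 and 609.9 in *rd7* and of 574 and 583 in wild-type retinas. Of them 5 were called higher, but only 1 with median-ratio scaling and 2 without the filter on low FPKM. The 7 rod markers used summed to 7969 and 8672 against 10780 and 11000, with 3 lower, which became 5 with the GC/length correction, 2 with quantile normalization and 1 without the filter on low FPKM. The 8 cone markers summed to 3304 and 3591 against 1015 and 1048, with 6 higher, also without the filter. The 10 markers of the pigment epithelium summed to 75.6 and 64.8 against 41.0 and 26.0, with 5 of 7 tested higher, none of them called by limma without the filter (adjusted p between 0.133 and 0.241, with 1 unadjusted p under 0.05), and *Mlana* was at 0 in 1 wild-type library. *Tyrp1*, at 1.90 and 1.07 in *rd7* and at 0.801 and 0.609 in wild-type retinas, passed the filter through the *rd7* values. The 7 markers of Müller cells summed to 2065 and 1986 against 1843 and 1909, with 3 higher, of which 1 was called without the filter. The 6 lens markers summed to 16.4 and 38.0 against 30.1 and 66.1, and the 4 tested were not called, and the 3 usable blood markers to 67.6 and 138 against 233 and 266, with 2 lower, neither of them called without the filter, and *Hbb-b2* at under 0.01 in 3 libraries. Their part in the levels of the dopamine, melatonin and cAMP genes was not tested.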

How the data were processed

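RNA from whole retinas was sequenced by the authors in single reads (50 bases, 1 lane), aligned to mm9 by TopHat 1.4.1 and quantified by Cufflinks 1.3.0, per the submitters' processing notes. The deposited values used here are FPKM per gene and library, with a status for each estimate. Tests made for counts were therefore not applied, and FPKM do not correct for library composition. A deposited table of the authors' Cuffdiff comparison (pooled FPKM, fold changes, p-values and q-values) was not used.

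Loci without a successful estimate in every library (262) were left out. Log2(FPKM + 0.1) of genes averaging 1 FPKM or more was compared by two-sided moderated tests in limma 3.58.1 (R 4.3.3), with a trend of variance on level and Benjamini-Hochberg adjustment over 12655 genes, for 2 *rd7* against 2 wild-type libraries and with no block. The step was tested on simulated data in which few genes changed, in both directions alike, and no library was shifted as a whole. In the data used here 46.4% of genes were called, so the simulation does not cover this setting or the choice of scaling. Other values were computed in Python 3.11.15. Members and lists were chosen with earlier results of these data known. Named are all members, up to 4 called genes of each list by size of change, and list genes a sentence counts or contrasts, except that some genes are not reported here. *Drd3*, *Drd5*, *Tph1*, *Mtnr1a*, *Mtnr1b*, *Slc6a3* and *Prkaca* are named for their roles, after values were seen.

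Exonic length and GC content came from an mm9 annotation (GENCODE M1) for 96.9% of the genes tested. The worth of 1 read was taken as the median of FPKM times kilobases between 0.02 and 0.036 in genes with 1 transcript of over 800 bases, a window chosen by eye, and estimates of reads cover counting error only. Locus starts were converted to count from 1. Tried instead were the GC/length correction (natural splines), median-ratio scaling, quantile normalization, pseudocounts of 0.01 and 1, a filter at 5 FPKM or none, the replicate block, variances without trend, a stricter FDR (1%) and each library left out.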

Additional observations from a re-analysis of the deposited data

How the results depend on the processing

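Among the members, *Drd2* and *Drd4* were called higher under all settings tried, and *Drd1a* was called higher under all but no filter on low FPKM. *Adcy1* was called lower under all but no filter and leaving out either wild-type library. *Slc18a2* depended on scaling, filter and threshold, and *Th* and *Pdc* were called lower only with some scalings. The sign of *Pdc* turned after quantile normalization (0.13). In each case the cause was not tested.

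Counts of genes higher and lower in *rd7* moved with scaling. All genes tested gave 2492 and 2479 with median-ratio scaling, 2350 and 2404 after quantile normalization, 1520 and 1849 with the GC/length correction, 2249 and 455 without a filter, and 2582 and 446 at an FDR of 1%, against 4755 and 1114. Lower members numbered 3 with median-ratio scaling, 2 after quantile normalization, 2 with the GC/length correction and 0 by limma without a filter (where *Adcy1* had an unadjusted p of 0.0329), and 2 members were then higher. Genes of both dopamine lists that were higher numbered 3 without a filter, 3 with median-ratio scaling, 2 after quantile normalization, 2 with the GC/length correction and 4 at an FDR of 1%, against 7. Those lower numbered 1 without a filter, 3 with a filter at 5 FPKM, 3 with a replicate block and 1 at an FDR of 1%, against 5. Melatonin genes higher numbered 1 without a filter, 1 with median-ratio scaling and 0 after the GC/length correction, against 2. Of the cyclase, phosphodiesterase and effector lists of cAMP, lower genes numbered 1 without a filter, 6 with median-ratio scaling and 6 after quantile normalization, against 2, and higher genes numbered 12 with the GC/length correction, against 24.

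With 1 library left out, the lone library of a genotype is assumed to vary like the others. Counts higher and lower then ranged from 1293 to 5484 and from 224 to 1601 over all genes, from 3 to 4 and from 0 to 1 among members, from 1 to 7 and from 1 to 5 among dopamine genes, from 0 to 3 among melatonin genes higher, and from 12 to 26 and from 2 to 4 among cAMP genes. Of the 37 single-gene values recomputed, 17 lost their call without wild-type replicate 1, with adjusted p from limma between 0.0534 and 0.267 (among them *Adcy1*, *Adcy8*, *Adcy9*, *Crem*, *Gchfr*, *Gnai1*, *Gnal*, *Gngt1*, *Nr1d2*, *Pdcl*, *Pde3b*, *Qdpr*, *Slc18a2*, *Spr*, *Ywhae* and *Ywhaz*). Without wild-type replicate 2, 10 lost it, with adjusted p from limma between 0.0501 and 0.200 (among them *Adcy1*, *Adcy8*, *Adcy9*, *Gnal*, *Gngt1*, *Qdpr*, *Slc18a2*, *Spr* and *Ywhae*), and without *rd7* replicate 2, *Adcy9* did (adjusted p = 0.086 from limma). Over all genes tested, numbers shared between genotypes carried no pairing (r = -0.0265 between the deviations of both libraries numbered 1, across genes), and the replicate block moved no other count by over 1.5 times. The lens markers did follow the number, with sums of 16.4 in *rd7* and 30.1 in wild-type replicate 1 and of 38.0 and 66.1 in replicate 2. Depth limits *Aanat* and *Ddc*, with at most 17 and 55 estimated reads in a library.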

Other observations

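The 3 genes whose values over the 4 libraries lay nearest to those of *Drd1a*, the called member with the largest change, were *Polk*, *Rnf141* and *Cdr1*. Likeness was the Euclidean distance between log2(FPKM + 0.1) values centred on the mean of each gene, over 4 libraries and 12654 other genes. The distance was 0.0568 for *Polk*, 0.0594 for *Rnf141* and 0.0647 for *Cdr1*, and 8 genes lay within 0.1. *Polk*, which encodes a DNA polymerase, had an FPKM of 5.34 and 5.72 in *rd7* and of 2.97 and 3.42 in wild-type retinas. With 4 libraries such likeness is a description of these values only.

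Among the clock genes, *Rorb*, which encodes an orphan nuclear receptor of retinal development, had an FPKM of 36.4 and 35.9 in *rd7* and of 25.6 and 24.0 in wild-type retinas (log2 fold change 0.55, adjusted p = 0.00161 from limma), and was not called with the GC/length correction (0.16). *Nr1d2* had 46.3 and 49.9 against 35.2 and 37.7 (0.40, adjusted p = 0.00507 from limma), and was not called with that correction or without the filter on low FPKM (adjusted p = 0.0663 from limma).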
